A study of Mus musculus with 4 samples.

Results

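The inducible heat shock genes of the cytosol, with their closest chaperone partners, were examined in mouse lung by their symbols. They were 10 of the 23282 rows of the deposited tables, namely Hspa1a, Hspa1b, Hspa8, Hsph1, Dnajb1, Bag3, Hsp90aa1, Hspb1, Hspd1 and Hspe1. Hspd1 and Hspe1 encode proteins of the mitochondrial matrix and Hspa8 is a constitutive gene, so "inducible" and "cytosolic" describe the remaining 7 genes more closely than these 3. The lungs came from male CDF1 mice, a hybrid laboratory strain, in 4 groups of 10 mice at a labelled age of postnatal day 28, which was also the age at purchase and may not be the age at sampling. The group E(-)T(-) had neither exercise nor tumor, E(+)T(-) ran on a treadmill, E(-)T(+) carried tumors and E(+)T(+) had both. Exercise was a high-intensity session of 45 min every other day, and tumors were CT26 cells, a murine colorectal carcinoma line, injected through the tail vein, from which they seed the lung. The animals were killed on day 19. Each group was represented by 1 library, and 4 values given together below follow the order in which the groups are named here. Muscle in the same study came from a representative mouse of each group and the lungs were handled similarly, but the number of mice behind each lung library is not stated, nor how long after the last session the lungs were taken.

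Heat shock genes encode chaperones, proteins that hold, fold or refold other proteins. When unfolded protein accumulates after heat, oxidants or exertion, heat shock factor 1 forms trimers, binds repeats of a short element in the promoters and raises transcription of these genes within minutes. HSP70 proteins work together with J-domain partners that bring them substrate and with exchange factors that make them release it. HSP90 acts later on signaling proteins, and small heat shock proteins hold unfolded protein in a form that HSP70 can recover.

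Libraries were made by priming at the poly(A) tail, so each read counts the end of a transcript. The recovered totals were between 9354503 and 13368031 reads assigned to rows, and 3 reads, the smallest abundance considered here, corresponded to between 0.224 and 0.321 CPM. Values were log2(normalized read count + 1). Since each group held 1 library, no difference has a replicate check and no p-value is given. Intervals are exact 95% intervals that cover counting error only, and PCR copies, which the libraries do not mark, are not independent molecules. A difference is called here when it reached 2-fold. The share of all 15164 genes with a mean normalized count of at least 4 that reached it is given for each comparison beside the count of the heat shock genes, and all 10 heat shock genes passed that filter. Lung epithelial markers, 10 of 10 with reads in every library, took 6.90% of the reads of E(+)T(-) and, at the low end, 1.47% of those of E(-)T(+). Erythroid markers ranged from 1.43% in E(-)T(+) to 31.6% in E(+)T(+). In E(+)T(+) the rows Hbb-bs and Hbb-b1 had 689697 and 680674 reads, and Hbb-bt and Hbb-b2 246393 and 237670. The same reads may thus have been counted in both rows of a pair, which would overstate erythroid shares and read totals. In whole lung, fewer cells of a type and less RNA per cell cannot be told apart. The library labelled E(+)T(-) also held reads of 9 genes that were without any read in the normal control but reached 500 normalized counts or more in E(-)T(+), at a median of 1.47% of their E(-)T(+) level. Taking that share of the E(-)T(+) level off each heat shock gene lowered its E(+)T(-) value by at most 0.03 on the log2 scale.

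The heat shock genes together took 0.177%, 0.641%, 0.199% and 0.124% of the reads of the libraries. The exercised lung without tumor stood alone at the top. Their summed normalized counts were 19593, 75276, 20405 and 19432, so that the other 3 libraries lay close together under the deposited scaling but not as shares of reads. Of the additional 55683 normalized counts in E(+)T(-) over E(-)T(-), Hsp90aa1 held 36.9% and Hspb1 30.9%, while Hspa1a and Hspa1b held 7.06% and 6.19%. E(+)T(-) was the highest library for 8 of the 10 genes, against 19.7% of all genes. The lowest library under the deposited scaling differed among them, being E(-)T(+) for 4 genes, E(+)T(+) for 3 and E(-)T(-) for 3. Under that scaling Bag3 peaked in E(+)T(+) and Hspd1 in E(-)T(+).

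**Figure D1:**
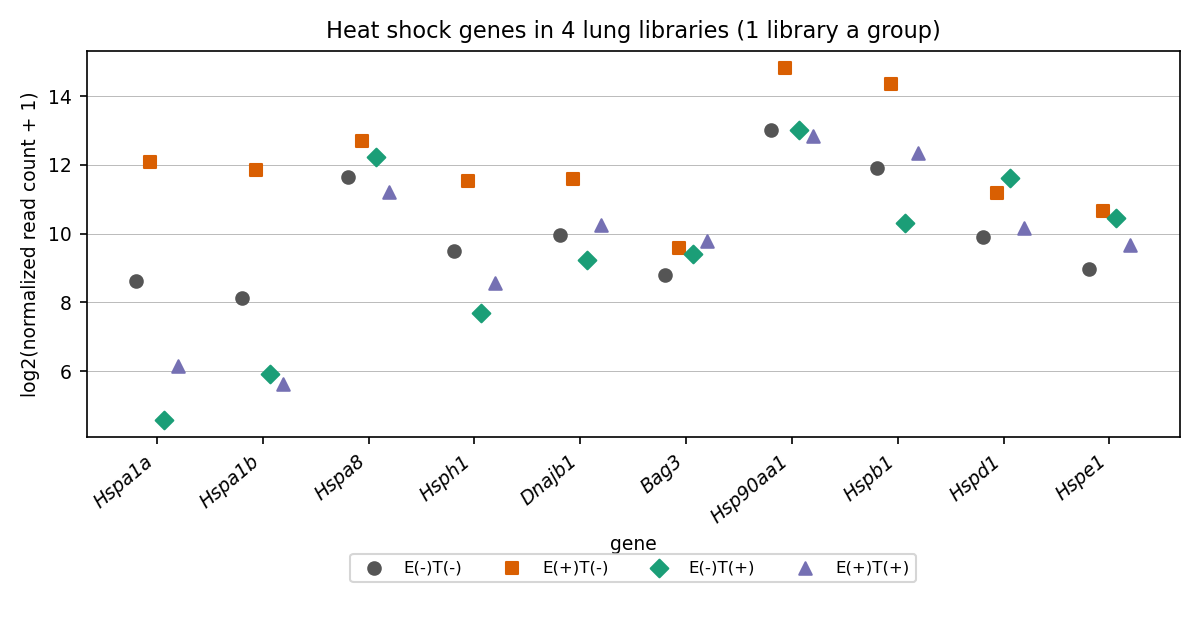
Level of each heat shock gene, as log2(normalized read count + 1) on the vertical axis, in the 4 lung libraries, 1 point a library. The E(+)T(-) squares are the top point for 8 of the 10 genes, and the Hspa1a points span 7.49 on the log2 scale.

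Hspa1a and Hspa1b encode nearly the same stress-inducible HSP70 protein, which binds exposed hydrophobic stretches of other proteins. They lie on the minus strand of chromosome 17 at chr17:34969190-34972156 and chr17:34956436-34959238 of mm10, with 9951 bases between them. Of the runs of 75 bases in the Hspa1a transcript, 52.7% also occur in Hspa1b. The last 500 bases, where reads of this kind of library begin, share no run longer than 10 bases, so reads from the annotated ends can be assigned to 1 of the genes. How the authors' counting treated reads from further inside is not given in the sources used here, and the sum of both genes is therefore given as well.

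Both promoters are shown because the 2 genes were the most variable of the set and are compared with each other below. The windows are those of RefSeq on GRCm38.p6, the assembly that mm10 names, from 250 bases before to 50 after the start site, on the minus strand at chr17:34972107-34972406 for Hspa1a and chr17:34959189-34959488 for Hspa1b. Capitals mark a heat shock element of 2 units, GAANNTTC or TTCNNGAA, each of which reads the same on both strands.
Hspa1a: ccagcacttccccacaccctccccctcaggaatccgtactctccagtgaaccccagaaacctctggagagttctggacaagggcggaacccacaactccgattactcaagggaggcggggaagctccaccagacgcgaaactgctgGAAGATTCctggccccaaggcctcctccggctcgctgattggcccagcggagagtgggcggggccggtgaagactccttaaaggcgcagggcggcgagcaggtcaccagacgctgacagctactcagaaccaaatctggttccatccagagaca
Hspa1b: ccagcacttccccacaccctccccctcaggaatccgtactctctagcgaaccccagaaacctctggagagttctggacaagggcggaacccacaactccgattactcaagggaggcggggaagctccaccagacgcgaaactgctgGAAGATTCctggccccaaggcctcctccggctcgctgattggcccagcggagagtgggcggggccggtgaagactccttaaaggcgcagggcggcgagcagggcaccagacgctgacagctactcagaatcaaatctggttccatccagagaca
The windows differ at 4 of 300 bases. Counted from 1 at the 5′ end, with the Hspa1a base first and the Hspa1b base last, these are C44T, T47C, T249G and C276T. Both hold 1 element, beginning at position -104 from the start site. A 2-unit element was present in 15.1% of all 32841 windows of this length, so a single match is a common one, and a match describes letters and not a bound site.

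Hspa1a had 468, 4712, 21 and 60 reads, at levels of 8.64, 12.08, 4.59 and 6.16. Hspa1b had 328, 4056, 54 and 41 reads, at 8.13, 11.86, 5.91 and 5.62. Both were far higher in the exercised lung without tumor than in any other library, and both tumor-bearing lungs were below both tumor-free lungs. Without tumor, the exercised lung was higher by 3.44 on the log2 scale for Hspa1a and by 3.74 for Hspa1b, and by 3.57 for their sum, which is 11.9-fold with an interval of the log2 read ratio from 3.47 to 3.68. Hspa1b was the 20th and Hspa1a the 33rd highest of 15164 genes in that comparison. In unexercised lungs the sum was 8.13-fold lower with tumor, and in exercised lungs 67.5-fold lower. The log2 differences of the second comparison, -5.93 for Hspa1a and -6.25 for Hspa1b, were the lowest of all 15164 genes tested.

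The 2 genes parted in the tumor-bearing lungs. Hspa1a was higher in E(+)T(+) than in E(-)T(+) by 1.57, with a counting interval from 0.87 to 2.40, whereas Hspa1b differed by -0.30, with an interval from -0.93 to 0.31 that includes 0. The summed reads were 75 and 101, a log2 difference of 0.52 with an interval from 0.08 to 0.97. This small difference turned to -0.08 under scaling by library totals and was 0.43 when hemoglobin genes were left out of the totals. Scaling by library totals lowered E(+)T(+) for genes in general. The median of all genes moved to -0.60 against E(-)T(+), -0.41 against E(+)T(-) and -0.52 against E(-)T(-). Hspa1a supplied 58.8% of the reads of the pair in the normal control (exact interval 55.3% to 62.2%), 53.7% with exercise (52.7% to 54.8%), 28.0% with tumor (18.2% to 39.6%) and 59.4% with both (49.2% to 69.1%). E(-)T(+) was the only library in which Hspa1b held the majority, and its interval overlaps none of the other 3.

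Hspa8, at chr9:40800984-40810087 on the plus strand, encodes the constitutive HSP70 of the cytosol, which folds new proteins and strips clathrin from vesicles. Its levels were 11.65, 12.70, 12.23 and 11.21. The exercised lung differed by 1.05 without tumor and by -1.02 with tumor, both just past 2-fold, so that E(+)T(-) was the highest library and E(+)T(+) the lowest. The difference without tumor was 0.96, inside the limit, under scaling by totals with or without the hemoglobin genes. Processed copies of Hspa8 are numerous in the mouse genome. Of the runs of 75 bases in its last 500 bases, 80.8% occur in transcripts of 8 other annotated genes, none of which has a row in the tables, so its counts are the least certain of the set.

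Relative to Hspa8 in the same library, the inducible pair changed over a wide range, in a ratio that does not depend on how libraries were scaled. There were 0.211 reads of Hspa1a and Hspa1b for each Hspa8 read in the normal control (interval 0.195 to 0.228), 1.21 with exercise (1.18 to 1.25), 0.0171 with tumor (0.0134 to 0.0215) and 0.0499 with both (0.0405 to 0.0610). No 2 of these intervals overlap. Hspa8 was not a fixed reference, since it differed with exercise by 1.05 without tumor and by -1.02 with tumor. Between the tumor-bearing lungs the summed pair differed by 0.52, so the ratio rose there more through Hspa8 than through the pair.

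Hsph1 encodes HSP110, which resets HSP70 by exchanging its nucleotide and with HSP70 and J-domain proteins can dissolve aggregates. It lies at chr5:149614287-149636376 on the minus strand. Its promoter window, chr5:149636287-149636586 on the minus strand, is shown as 1 of the windows with a 3-unit element, GAANNTTCNNGAA or its reverse complement TTCNNGAANNTTC. A 3-unit match contains 2 overlapping 2-unit matches. The capitals mark a 2-unit element beginning at position -33 from the start site and a 3-unit element beginning at position 36.
Hsph1: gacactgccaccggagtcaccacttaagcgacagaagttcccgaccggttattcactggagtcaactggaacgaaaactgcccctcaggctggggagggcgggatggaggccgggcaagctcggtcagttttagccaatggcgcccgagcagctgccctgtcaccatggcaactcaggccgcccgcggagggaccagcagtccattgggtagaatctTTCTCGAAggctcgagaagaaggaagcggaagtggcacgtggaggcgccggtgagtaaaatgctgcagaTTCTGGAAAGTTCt
A 3-unit element was present in 0.603% of all windows. Hsph1 levels were 9.50, 11.54, 7.69 and 8.55. As for Hspa1a, both tumor-free lungs were above both tumor-bearing ones, and within each tumor state the exercised lung was the higher. The exercise difference was 2.04 without tumor and 0.86 with tumor. The latter was 0.25 under scaling by library totals and 0.77 when hemoglobin genes were left out of the totals. The tumor difference was -1.81 without exercise and -2.99 with exercise.

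Dnajb1, at chr8:83608193-83612653 on the plus strand, encodes HSP40, the J-domain partner that delivers substrate to HSP70. Levels of 9.97, 11.59, 9.23 and 10.24 placed both exercised lungs above both unexercised lungs under the deposited scaling. With library totals, E(+)T(+) lay below E(-)T(-), at a difference of -0.225. The exercise difference was 1.62 without tumor and 1.01 with tumor, the latter just past 2-fold. The difference with tumor was inside the limit under every other scaling tried, at 0.40 for library totals, 0.92 for totals without hemoglobin genes and 0.99 for median-of-ratios factors. Neither of its 2 RefSeq windows held a 2-unit element, whereas each of the other 7 genes in the window table had at least 1 window with one.

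Bag3, at chr7:128523616-128546981 on the plus strand, encodes a scaffold that joins HSP70 and the small heat shock proteins and directs damaged protein to autophagy. It was the least variable gene of the set, at 8.79, 9.60, 9.41 and 9.80. The exercised lung without tumor was higher by 0.81 (interval 0.65 to 0.97), so that Bag3 was the 1 gene that did not reach 2-fold there. Its peak was the lung with both exercise and tumor, which was 1.01 above E(-)T(-), just past the limit and inside it when totals, with or without hemoglobin genes, set the scale. Its difference of 0.20 between E(+)T(+) and E(+)T(-) became -0.21 with scaling by totals alone, and that of 0.39 between E(+)T(+) and E(-)T(+) became -0.22. With hemoglobin genes left out of the totals they were 0.11 and 0.30. The window of Bag3, chr7:128523333-128523632 on the plus strand, holds 1 element, beginning at position 42, and is shown beside the others because this gene moved least.
Bag3: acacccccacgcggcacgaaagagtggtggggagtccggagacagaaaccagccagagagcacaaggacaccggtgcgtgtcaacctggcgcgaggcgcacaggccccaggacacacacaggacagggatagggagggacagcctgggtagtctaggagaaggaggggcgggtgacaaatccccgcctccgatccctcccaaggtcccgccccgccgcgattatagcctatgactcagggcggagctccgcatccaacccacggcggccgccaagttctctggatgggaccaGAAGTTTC

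Hsp90aa1, at chr12:110690605-110702728 on the minus strand, encodes the inducible cytosolic HSP90, which holds kinases and nuclear receptors in an active state. Its levels were 13.01, 14.81, 13.01 and 12.84. Beside 3 libraries of nearly one level under the deposited scaling, the exercised lung without tumor was 1.81 above E(-)T(-). This was 3.50-fold higher (interval of the log2 read ratio 1.77 to 1.84). Under scaling by library totals, E(+)T(+) stood lower, at -0.66 against E(-)T(-) and -0.77 against E(-)T(+). With hemoglobin genes left out of the totals these were -0.34 and -0.25. Between the unexercised lungs the interval was -0.04 to 0.04. Hsp90aa1 was thus called with exercise only in the pair of libraries without tumor. In the other pair it differed by -0.17, and the exercise difference with tumor minus that without was -1.97 with a counting standard error of 0.03. The constitutive paralog Hsp90ab1 had 23071, 53618, 37304 and 11915 reads. For each Hsp90ab1 read there were 0.420 Hsp90aa1 reads in the normal control (interval 0.410 to 0.430), 0.584 with exercise (0.576 to 0.592), 0.201 with tumor (0.196 to 0.206) and 0.527 with both (0.511 to 0.543). Both exercised lungs thus had a higher inducible share than both unexercised lungs, although the level of Hsp90aa1 itself was not higher in E(+)T(+) than in E(-)T(+). Hsp90ab1 differed with exercise by 1.33 without tumor and by -1.55 with tumor. With tumor, the higher share thus came through a lower level of Hsp90ab1.

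Hspb1, at chr5:135887919-135889563 on the plus strand, encodes a small heat shock protein that binds unfolded protein without ATP and also acts on actin filaments. After Hsp90aa1 it held the largest share of the additional counts in E(+)T(-), and it had the most alike exercise differences of the genes called in both pairs. Levels were 11.92, 14.36, 10.32 and 12.34, that is 4550, 22921, 1166 and 4418 reads. The exercised lung was 5.45-fold higher without tumor and 4.04-fold higher with tumor. The difference with tumor was inside 4-fold under every other scaling tried. On the log2 scale it was 1.41 for library totals, 1.93 for totals without hemoglobin genes and 1.996 for median-of-ratios factors. Within each exercise state the lung with tumor was lower, with log2 differences of -1.60 without exercise and -2.03 with it. Its window, chr5:135887669-135887968 on the plus strand, is shown because it holds 2 separate 2-unit elements, beginning at positions -117 and -97 from the start site, a number reached by 1.96% of all windows.
Hspb1: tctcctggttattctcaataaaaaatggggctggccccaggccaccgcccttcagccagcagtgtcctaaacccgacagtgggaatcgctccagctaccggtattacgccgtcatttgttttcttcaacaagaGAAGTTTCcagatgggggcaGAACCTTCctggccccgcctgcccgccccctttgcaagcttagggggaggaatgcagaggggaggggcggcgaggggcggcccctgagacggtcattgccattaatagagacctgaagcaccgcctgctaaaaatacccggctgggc
Of the runs of 75 bases in its last 500 bases, 10.3% also occur in the processed copy Hsp25-ps1.

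Hspd1 and Hspe1 encode HSP60 and HSP10, the barrel and the lid of the chaperonin that folds proteins in the mitochondrial matrix. They are arranged head to head on chromosome 1, at chr1:55077835-55088243 on the minus strand and chr1:55088132-55091307 on the plus strand, and their annotated spans overlap by 112 bases. The window of Hspe1 shares 285 of its 300 bases with 1 of the 2 Hspd1 windows, and the other Hspd1 window, chr1:55088194-55088493 on the minus strand, holds no 2-unit element. It is shown as read on the plus strand at chr1:55087898-55088197, with 3 overlapping 2-unit elements in capitals, which together make 2 overlapping 3-unit elements beginning at positions -89 and -84 from the Hspe1 start site.
Hspe1: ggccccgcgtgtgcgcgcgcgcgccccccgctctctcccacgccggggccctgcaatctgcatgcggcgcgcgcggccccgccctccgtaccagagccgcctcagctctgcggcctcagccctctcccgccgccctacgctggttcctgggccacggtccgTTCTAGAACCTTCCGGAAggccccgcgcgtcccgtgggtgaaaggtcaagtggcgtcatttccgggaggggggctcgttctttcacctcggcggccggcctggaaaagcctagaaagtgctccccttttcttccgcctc

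The chaperonin genes had an order of libraries of their own. Hspd1 was at 9.89, 11.17, 11.61 and 10.18. Hspe1 was at 8.98, 10.67, 10.44 and 9.67. For both, under the deposited scaling, the lung with neither exercise nor tumor was lowest and the lungs with 1 of the 2 were the highest pair. Under scaling by library totals alone, E(+)T(+) became the lowest for Hspd1, at -0.21 against E(-)T(-). Exercise without tumor went with a higher level, by 1.28 for Hspd1 and 1.69 for Hspe1, as did tumor without exercise, by 1.72 and 1.46. In tumor-bearing lungs the exercised one was lower, with differences of -1.43 for Hspd1 and -0.78 for Hspe1. Hspa8 and Hspd1 were thus called in opposite directions by exercise without and with tumor, a pattern of 1.68% of all genes, and Hspe1 by tumor without and with exercise, a pattern of 1.02%. The Hspa8 pattern was lost under both scalings by totals, as above, and that of Hspe1 with a pseudocount of 4, where its difference between exercised lungs was -0.999. The ratio of Hspe1 to Hspd1 reads was 0.705 (interval 0.663 to 0.749) with exercise and 0.701 (0.635 to 0.773) with both factors, above 0.532 (0.481 to 0.588) in the normal control and 0.445 (0.416 to 0.475) with tumor. The ratio was thus higher in both exercised lungs, and their intervals overlap. Of the runs of 75 bases at the end of Hspe1, 39.0% occur in another annotated gene, AC117239.2, so part of its reads may be shared with that copy.

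In the comparison of exercise without tumor, 9 of the 10 genes were at least 2-fold higher and none was lower, where 5.28% of all genes were that much higher and 4.7% that much lower. Their log2 differences ranged from 0.81 for Bag3 to 3.74 for Hspa1b, with a median of 1.75 against 0.00 over all genes. Hspa8, at 1.05, was the closest of the called genes to the limit, and without its call the count was 8 under scaling by totals with or without the hemoglobin genes. At a limit of 4-fold, 4 genes were still called, Hspa1a, Hspa1b, Hspb1 and Hsph1, where 1.44% of all genes were that much higher. Hsph1 was inside this limit under scaling by totals, at 1.96, and by totals without the hemoglobin genes, at 1.95. The marker lists of lung epithelium and endothelium differed little between these libraries, at 6.06% and 6.90% of reads and at 0.193% and 0.183%, and erythroid markers took 14.4% and 14.2%. The neutrophil markers took 0.0349% in E(-)T(-) and 0.102% in E(+)T(-), with 8 of 9 detected and Elane at 0 in both, and cycling markers took 0.00330% and 0.00681%, or 429 and 870 reads. Their part in the result was not tested.

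In the comparison of tumor without exercise, the set divided. Hspa1a, Hspa1b, Hsph1 and Hspb1 were at least 2-fold lower in E(-)T(+), Hspd1 and Hspe1 were at least 2-fold higher, and Hspa8, Dnajb1, Hsp90aa1 and Bag3 were inside the limit. Here 25.7% of all genes were that much lower and 20.6% that much higher, so these counts are near the background. The E(-)T(+) library had 0.0227% of its reads on 8 endothelial markers against 0.193% in E(-)T(-), and 0.116% on 10 markers of cycling cells against 0.00330%, where Bub1 was at 0. The part of these cell types in the differences was not tested.

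In the comparison of exercise with tumor, 3 genes were at least 2-fold higher in E(+)T(+), Hspb1, Hspa1a and Dnajb1, and 2 at least 2-fold lower, Hspa8 and Hspd1. These counts stand against 24.3% and 17.7% of all genes. The median was 0.11, and the count of higher genes was 1, Hspb1, with Hspa1a at 0.97, that of lower genes 3, with Hspe1 at -1.38, and the median -0.50 under scaling by library totals, a scaling that moved the median of all genes to -0.60. Epithelial markers took 1.47% of reads without exercise and 4.59% with it, neutrophil markers 0.109% and 1.33%, and cycling markers 0.116% and 0.0243%. Whether these cell types carry the differences was not tested.

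Between the exercised lungs, 8 of the 10 genes were at least 2-fold lower with tumor and none was higher, beside 13% and 14.9% of all genes. The median was -1.73, against 0.00 over all genes. Hspd1, at -0.993, was just inside the limit and Hspe1, at -1.002, just past it and inside it with a pseudocount of 4, with intervals of the read ratio that include the limit for both. Bag3 was the only gene with a value above 0. This comparison and that of exercise without tumor share the E(+)T(-) library, so a high value in that library enters both. Epithelial markers took 6.90% of reads without tumor and 4.59% with it, erythroid markers 14.2% and 31.6%, and neutrophil markers 0.102% and 1.33%. As summed normalized counts, epithelial markers were closer, at 810145 and 716676. The part of these cell types was not tested.

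**Figure D2:**
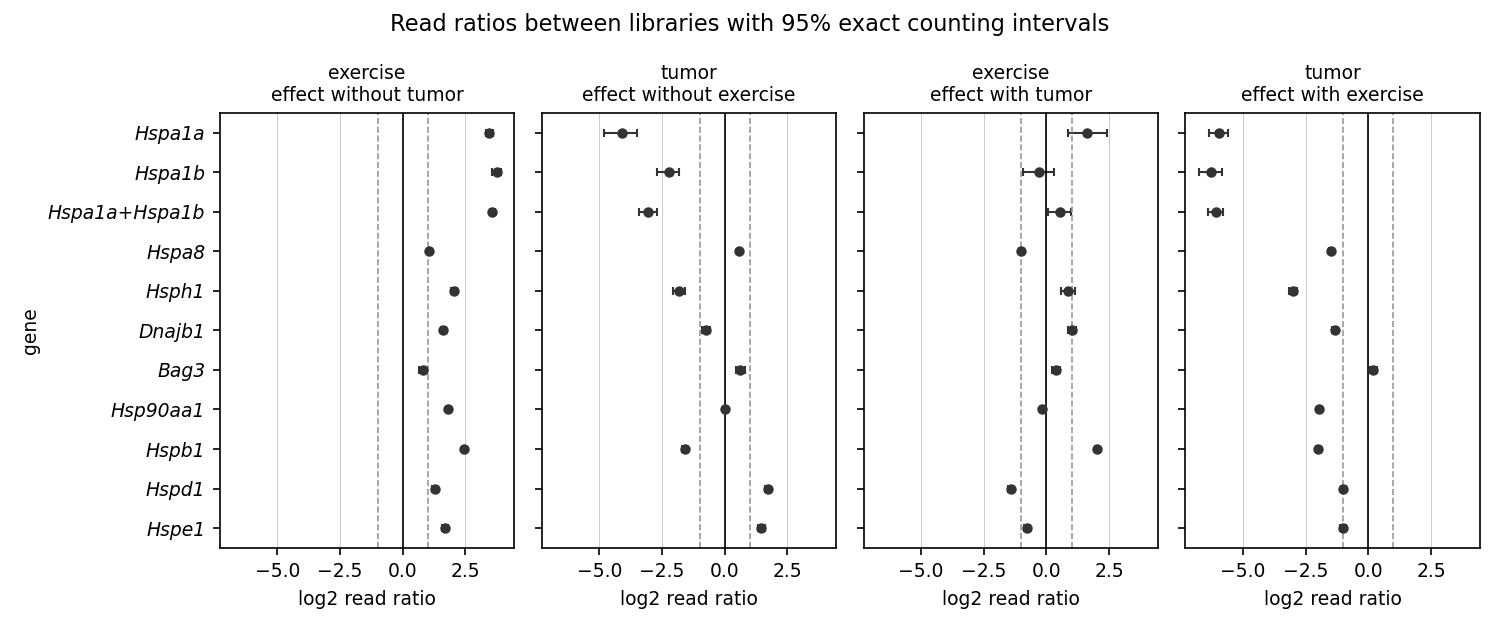
Log2 read ratios of the heat shock genes, on the horizontal axes, for the 4 comparisons that change 1 factor, with exact 95% counting intervals as bars and the 2-fold limits as dashed lines. All points of the exercise comparison without tumor are above 0, and those of the tumor comparison with exercise reach down to -6.28 for Hspa1b.

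The lung with both factors was also compared with the lung with neither. Of the 10 genes, 7 were within 2-fold in E(+)T(+) against E(-)T(-), Hspa1a and Hspa1b were lower, with differences of -2.48 and -2.51, and Bag3 was higher by 1.01, beside 14.4% of all genes lower and 14.8% higher, so these counts are near the background. The positive differences of Dnajb1, Hspb1 and Hspd1, at 0.27, 0.42 and 0.29, became -0.23, -0.08 and -0.21 with scaling by totals alone. Hsph1, at -0.95, was just inside the limit. At -1.45 and -1.13 it was past it under scaling by totals and by totals without hemoglobin genes, which made 3 lower genes. Erythroid markers took 14.4% of reads with neither factor and 31.6% with both, and neutrophil markers 0.0349% and 1.33%. Endothelial markers took 0.193% and 0.106%, epithelial markers 6.06% and 4.59%, and cycling markers 0.00330% and 0.0243%. As summed normalized counts, epithelial markers were not lower with both factors, at 670057 and 716676, and endothelial markers were at 21326 and 16576. The part of these cell types was not tested.

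The exercise difference was lower with tumor than without for all 10 genes, and lower by at least 2-fold for 7 of them, where 18.9% of all genes were that much lower. No test of this difference was possible with 1 library a group. The difference between the exercise effects, with minus without tumor, ran from -0.42 for Bag3 and -0.43 for Hspb1 to -4.03 for Hspa1b. The median was -1.92, against 0.02 over all genes. The exercise difference without tumor is part of this quantity, so a high value in the E(+)T(-) library enters here as well. Counting standard errors were between 0.03 and 0.37. The genes fell into those that kept a positive difference with tumor (Hspb1, Hspa1a, Dnajb1, Hsph1 and, except under scaling by library totals alone, Bag3) and those at or below 0 (Hsp90aa1, Hspa1b, Hspe1, Hspa8 and Hspd1).

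**Figure D3:**
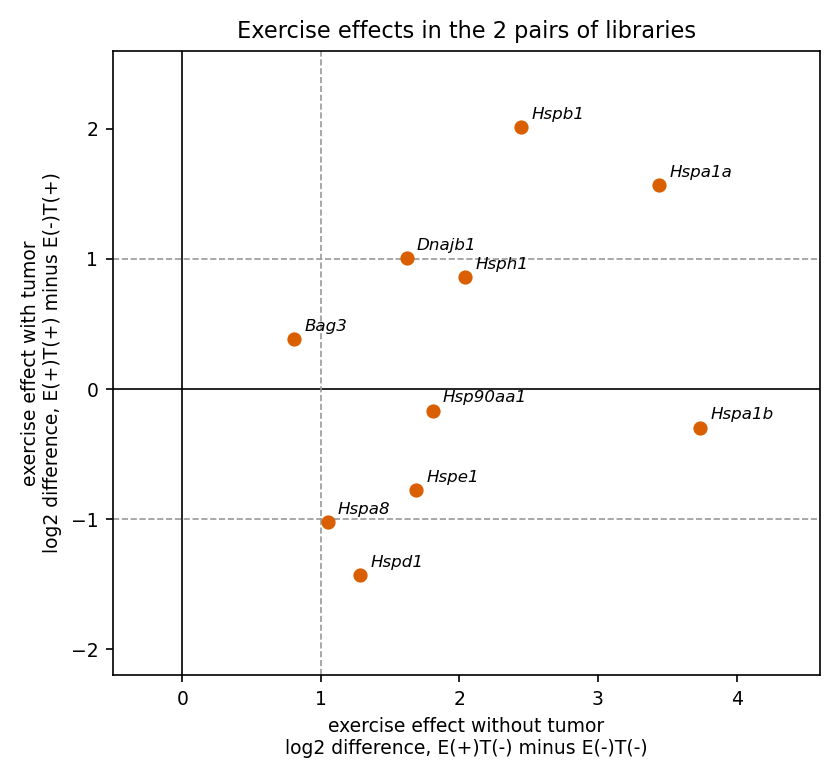
Exercise difference with tumor (vertical axis) against that without tumor (horizontal axis), both as log2 differences between 2 libraries, 1 point a gene, with dashed lines at 2-fold. All 10 genes are to the right of 0, from 0.81 to 3.74, but vertically they spread from -1.43 for Hspd1 to 2.02 for Hspb1.

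Other chaperones were read from lists of related genes, whose counts stand against the all-gene shares given above for each comparison. Of 12 HSP90-related genes, 6 were at least 2-fold higher in the exercised lung without tumor and none was lower, against 5.28% and 4.7% of all genes, with a median of 0.88. Hsp90ab1 was higher by 1.33, Chordc1, a zinc-binding partner of HSP90, by 1.26 and Fkbp4, an immunophilin of steroid receptor complexes, by 1.02. Between the exercised lungs the same 3 genes were lower with tumor, with differences of -1.82, -2.56 and -1.80. Fkbp5, an immunophilin induced by glucocorticoids, had another pattern, with 262, 404, 2726 and 626 reads. Among 8 J-domain proteins of the cytosol, Dnaja1 alone was called with exercise without tumor, at 1.30, with 2841, 6473, 1041 and 1225 reads.

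None of 8 constitutive HSP70 and HSP110 relatives reached 2-fold with exercise without tumor, with a median of 0.35 against 0.00 over all genes. Hspa4 had 1962, 2888, 2205 and 2366 reads, a difference of 0.67, and Hspa13 differed by 0.22. Hspa12b, an HSP70 relative of endothelial cells, was at 283, 258, 22 and 56 reads and so had both tumor-bearing lungs far below the others without any higher value in E(+)T(-). None of 8 nucleotide exchange factors and regulators of HSP70 was called in that comparison either. Bag2 had 38, 32, 349 and 35 reads, a difference of 3.53 with tumor in unexercised lungs. Of the small heat shock proteins, 6 of 8 passed the filter and Hspb8, a partner of Bag3, was called with exercise without tumor, at 1.30. Cryab, an abundant small heat shock protein of muscle and lens, was at -0.09.

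The mitochondrial list other than Hspd1 and Hspe1 gave no call with exercise without tumor among 9 genes, with a median of 0.02. Hspa9, the HSP70 of the mitochondrial matrix, had 1295, 1520, 3970 and 1533 reads, differing by 0.34 with exercise and by 1.98 with tumor. Hspd1 and Hspe1 thus resembled the cytosolic genes in the exercised lung without tumor and Hspa9 in the unexercised lung with tumor. Of 13 chaperones of the endoplasmic reticulum, 1 was called with exercise without tumor, Sdf2l1 at 1.20, a gene chosen for mention after its value was seen, and 12 of 13 were above 0, with a median of 0.61. Hspa5, the HSP70 of that compartment, was higher by 0.96 and Hsp90b1 by 0.59. None of 5 tested heat shock factors and their binding proteins was called, with a median of 0.41. Hsf1, the factor described above and added here after its value was seen, differed by 0.48 (interval 0.16 to 0.81). Hsf2 differed by -0.14 and Hsbp1, an inhibitor of heat shock factor trimers, by 0.53.

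Cirbp and Rbm3, RNA-binding proteins known to increase in cooled cells and to decline in warmed ones, were lowest in the library where the heat shock genes were highest. Cirbp had 514, 241, 1745 and 2137 reads. Rbm3 had 330, 224, 2026 and 926 reads. Without tumor, the exercised lung was at -0.98 for Cirbp and -0.45 for Rbm3, neither of which reached 2-fold, and in exercised lungs the tumor-bearing one was higher by 3.49 and 2.39. Immediate early genes, which respond within minutes to many stimuli and to handling of tissue, had a different arrangement from the heat shock genes. Of 13 tested, 1 was higher and 1 lower with exercise without tumor, at a median of 0.13, while 10 were higher in E(+)T(+) than in E(-)T(+), where 24.3% of all genes were, at a median of 1.76. Fosb had 47, 32, 52 and 226 reads, and Junb 868, 934, 1132 and 5143. Atf3, which heat shock factor 1 also induces, was higher by 1.48 with exercise without tumor and by 3.58 with exercise and tumor.

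Among other targets of heat shock factor, 2 of 9 tested genes were at least 2-fold higher with exercise without tumor, at a median of 0.48. Hmox1, which degrades heme, had 28, 79, 190 and 187 reads, a difference of 1.58. Rgs2, a regulator of G-protein signaling, had 2146, 2774, 1194 and 7764 reads and was highest in the lung with both factors.

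**Figure D4:**
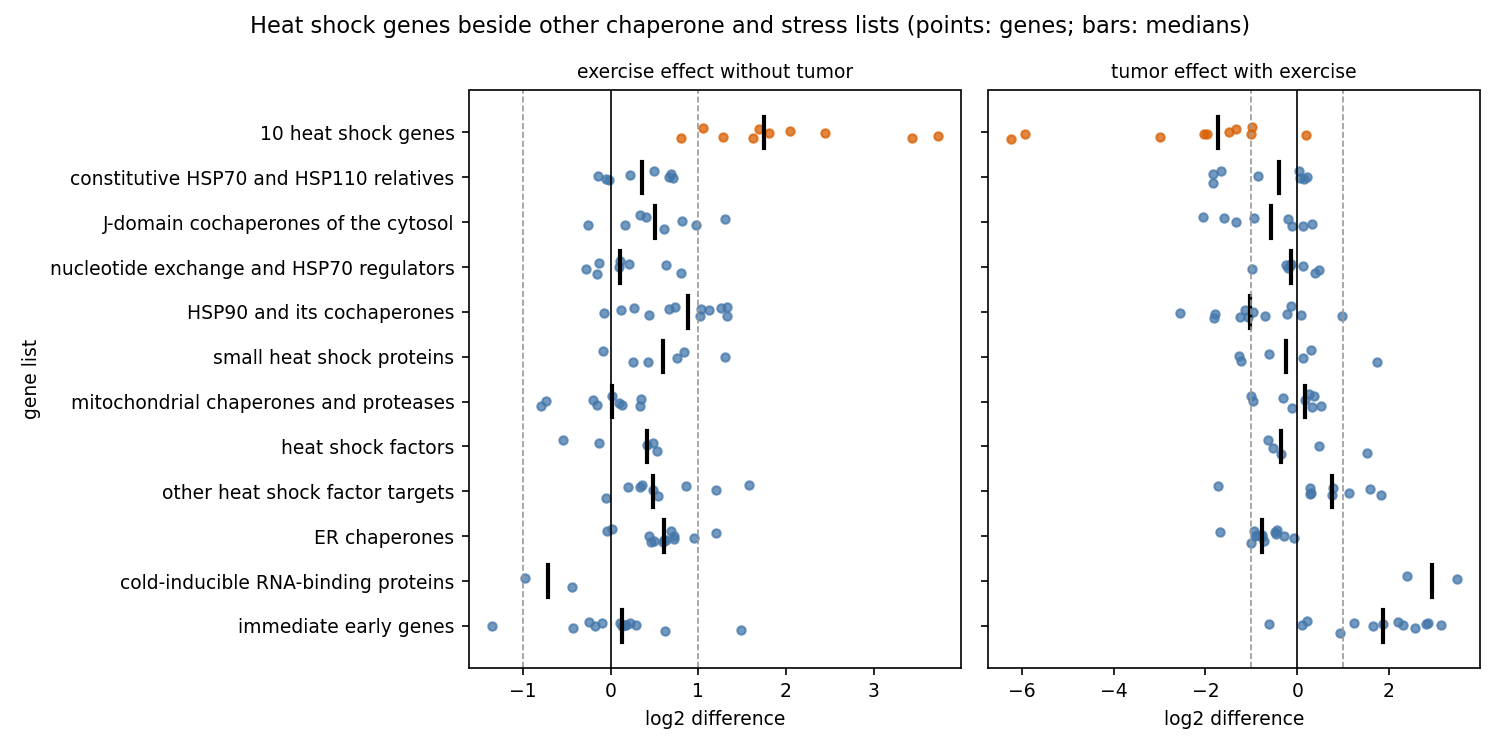
Log2 differences, on the horizontal axes, of the 10 heat shock genes (orange) and of genes of other chaperone and stress lists (blue), for exercise without tumor and for tumor with exercise. Each point is a gene, black bars are medians and dashed lines the 2-fold limits; the median of the heat shock genes was 1.75 in the first comparison and -1.73 in the second, against 0.88 and -1.02 for HSP90 and its cochaperones.

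Genes of like pattern were sought among 11206 rows with a mean normalized count of at least 50 as those with the smallest root mean square difference of centered log2 values over the 4 libraries. No row came near the summed Hspa1a and Hspa1b, the closest being Kctd21 at 1.16 and Cr2, a complement receptor of B cells, at 1.17. Kctd21 had 116, 149, 5 and 8 reads and Cr2 149, 325, 17 and 4, so they shared mainly the low values of tumor-bearing lungs. The mean of the other 8 genes had closer neighbors, Mns1 at 0.13, Adamts9 at 0.17, and Ahsa1, Tubb2b and Ddit3 at 0.20 each. Ahsa1, which activates the ATPase of HSP90, had 895, 1802, 713 and 670 reads, and Ddit3, a transcription factor of the unfolded protein response, 675, 1269, 419 and 451.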

How the data were processed

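The authors sequenced 3′ libraries (QuantSeq, 500 ng RNA, single reads of 75 bases), aligned them with Bowtie2 to mm10, counted reads with bedtools coverage and normalized by the quantile method of edgeR. Versions, annotation and use of strand are not given in the sources used here. The deposited values are the authors' log2 values, found to be log2(normalized count + 1). Whole reads were recovered by fitting library sizes and a dispersion of 0.372, which gave 100% of values within 0.001 and was tested on simulated data. Log2 differences use the deposited values, and counting intervals are exact (Clopper-Pearson) on the recovered reads. R 4.3.3, Python 3.11.15, scipy 1.17.1 and pandas 2.3.3 were used. Gene positions are from the GENCODE annotation of mm10 and promoter windows from RefSeq. Windows matched 8 of the 10 genes, the others being Hspa8 and Hsp90aa1. Genes and lists were chosen with earlier results of these data known. Named genes outside the set were taken from the 2 highest of each list, those past 4-fold in a comparison of 1 factor, and the 5 rows of most like pattern. The text prints examples of these, picked with their values known, and a gene that this rule names is not reported here. Alternatives were other scalings, pseudocounts, filters and fold limits, and the pair Hspa1a and Hspa1b as 1 feature.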

Additional observations from a re-analysis of the deposited data

Results flagged for a closer look

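Some genes had opposite differences in the 2 pairs of libraries. With exercise, Hspa8 was 1.05 higher without tumor and differed by -1.02 with tumor. Hspd1 was 1.28 higher with exercise without tumor and differed by -1.43 with tumor. With tumor, Hspe1 was 1.46 higher without exercise and differed by -1.00 with exercise. Each value compares 1 library with 1 library, and the differences between them were not tested. The first value of Hspa8 was 0.96 under scaling by totals with or without hemoglobin genes, and the second of Hspe1 was -0.999 with a pseudocount of 4. Among all genes, 1.68% were 2-fold higher with exercise without tumor and 2-fold lower with exercise and tumor, and 1.02% had the corresponding pattern for tumor.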

How the results depend on the processing

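Each group has 1 library, so nothing could be left out, and no difference is known to exceed the spread between animals. No paired analysis was possible because each group has 1 library. Of 220 differences of the 10 genes and the summed pair recomputed under other scalings and another pseudocount, 165 stayed within their counting interval, 55 moved and 0 that had been called changed sign. Scaling by library totals alone moved the median of all genes to -0.60 with exercise and tumor, -0.41 with tumor and exercise, and -0.52 for E(+)T(+) against E(-)T(-), where totals without hemoglobin genes gave -0.20. With totals alone, exercise with tumor had 1 higher and 3 lower genes and a median of -0.50, tumor with exercise a median of -2.14, and E(+)T(+) against E(-)T(-) 0 higher and a median of -0.44; without hemoglobin genes the last had 0 higher and a median of -0.12. Under both scalings by totals, 8 genes were higher for exercise without tumor, 9 lower for tumor with exercise and 3 lower for E(+)T(+) against E(-)T(-). With Hspa1a and Hspa1b summed, the medians were 0.0010 for tumor without exercise, 0.39 for exercise with tumor, -1.49 for tumor with exercise and 0.27 for E(+)T(+) against E(-)T(-), which then had 1 lower feature. At 4-fold, exercise without tumor had 4 higher genes (2.66% of all genes either way), tumor without exercise 0 higher and 2 lower (21.4%), exercise with tumor 1 higher and 0 lower (16.4%), tumor with exercise 4 lower (8.64%) and E(+)T(+) against E(-)T(-) 0 higher (9.34%). At 1.5-fold, all-gene shares were 22.5% for exercise without tumor, 48.8% for tumor with exercise and 50.4% for E(+)T(+) against E(-)T(-), which had 2 higher. Among genes with mean normalized counts of 100 or more, the shares were 2.13% for exercise without tumor and 17.9% for tumor with exercise, and 0 genes of the other lists were lower with exercise without tumor. A share of 1.47% of the E(-)T(+) level was also taken off E(+)T(-), a choice made after seeing the data. It left 9 genes higher and 7 lower in the comparisons of that library, with Hspe1 moving inside the limit. Whether the reads that set this share came from E(-)T(+) was not tested.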
